A study of Rattus norvegicus with 16 samples.

Results

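The aquaporin genes of the rat cornea were followed through suture-induced inflammation and its topical treatment. Members were taken by name from the annotation of the arrays (*Aqp1*, *Aqp3*, *Aqp4*, *Aqp5*, *Aqp7*, *Aqp8*, *Aqp9* and *Aqp11*), with no measured value used. All 8 genes were found, on 11 of the 31042 probe sets tested and among 14217 genes in all. *Aqp1* had 2 probe sets and *Aqp4* had 3, and of several probe sets the one with the highest average signal stood for the gene. RNA of 16 corneas of male Wistar rats aged 12 to 16 weeks was measured on 1 Affymetrix array per cornea, with 4 arrays in each of the naïve, IgG, anti-*Vegf* and dexamethasone groups. Naïve corneas had neither sutures nor drops. The other 12 corneas all carried 2 sutures, 1.5 mm away from the limbus on the temporal side, and received drops 4 times per day for 2 days (8 drops in all). The drops held goat IgG as the control antibody (the labels name it an anti-IgG antibody), a rat-specific antibody to Vegf, or dexamethasone at 1 mg/ml. Both antibodies were given at 20 mg/ml by the labels, and in micrograms rather than milligrams by the methods. No group of sutured corneas went without drops, so suture and drops cannot be told apart against naïve corneas. The tissue was described in the methods as the cornea between sutures and limbus without the limbal rim, and in the labels as cornea without the scleral rim.

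Aquaporins are channels of the cell membrane that let water cross along an osmotic gradient. *Aqp1*, *Aqp4*, *Aqp5* and *Aqp8* are water channels, *Aqp3*, *Aqp7* and *Aqp9* also pass glycerol and are called aquaglyceroporins, and *Aqp11* is a distant member found mainly on membranes inside the cell. In the cornea *Aqp5* and *Aqp3* are known from the epithelium and *Aqp1* from the endothelium and the keratocytes, and the clarity of the tissue depends on water being kept out of the stroma. *Aqp9* is best known from liver and white blood cells, *Aqp7* from fat cells and *Aqp4* from glia.

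The promoters of *Aqp5* and *Aqp3*, the members with the highest signals, are shown because both were lower in sutured corneas and only *Aqp5* differed with dexamethasone. They are the 250 bases before each start site in the RefSeq annotation (build GRCr8), read 5′ to 3′ in the direction of the gene, for *Aqp5* at chr7:132601278-132601527 on the plus strand and for *Aqp3* at chr5:61040684-61040933 on the minus strand. Capitals mark matches on either strand to a TATA box (TATAAA), a GC box (GGGCGG), an E box (CACGTG), the hexamer of the glucocorticoid receptor (AGAACA) or the AP-1 motif (TGACTCA).
Aqp5: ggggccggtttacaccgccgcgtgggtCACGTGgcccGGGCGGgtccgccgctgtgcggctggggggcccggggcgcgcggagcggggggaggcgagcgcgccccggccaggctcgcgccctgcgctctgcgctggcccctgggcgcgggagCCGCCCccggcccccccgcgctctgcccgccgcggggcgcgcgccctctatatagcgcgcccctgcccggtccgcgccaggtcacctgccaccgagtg
Aqp3: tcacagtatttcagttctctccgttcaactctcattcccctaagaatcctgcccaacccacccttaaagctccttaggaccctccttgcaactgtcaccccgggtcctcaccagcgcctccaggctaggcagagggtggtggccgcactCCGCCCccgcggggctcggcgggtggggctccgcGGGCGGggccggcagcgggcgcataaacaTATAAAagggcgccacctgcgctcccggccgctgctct
The *Aqp5* window held 83.2% G and C and 41 CG pairs, and the *Aqp3* window 65.2% and 19, where the median of 33469 windows was 51.2% and 5. *Aqp5* had 2 GC boxes and 1 E box, and *Aqp3* had 2 GC boxes and 1 TATA box that began 38 bases before the start site. Of all windows, 12.9% held the TATA box, 30.5% the GC box, 5.59% the E box, 17.5% the glucocorticoid receptor hexamer and 4.05% the AP-1 motif. Of the 7 members in the table, only *Aqp9* had the glucocorticoid receptor hexamer, on the opposite strand. In the same annotation *Aqp5* lies on chromosome 7 between *Aqp2* and *Aqp6*, and *Aqp3* lies on chromosome 5 next to *Aqp7*.

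Signals are on the log2 scale throughout, so that a difference of 1 is a doubling. *Krt12*, the keratin of the corneal epithelium, read between 14.65 and 14.79 on all 16 arrays. Neutrophil and monocyte markers rose in all sutured groups, with 6 of 10 called higher in each. The lens gene *Cryaa* read 8.13 to 11.31 in dexamethasone treated corneas against 5.04 to 6.84 elsewhere. Of 7 lens markers, *Cryaa* among them, 4 were called higher in dexamethasone relative to naïve corneas and 1 each in IgG and anti-*Vegf*. Lens markers called lower numbered 0, and *Gja3* differed by −0.30 in dexamethasone without a call. The poly-A controls, spiked in as RNA before labelling, read 4.93 to 5.16 on naïve and 5.03 to 5.40 on dexamethasone arrays, but 6.80 to 7.44 on IgG and 6.75 to 7.02 on anti-*Vegf* arrays. No array of the first pair of groups overlapped with the second pair (exact two-sided permutation p = 0.0286 for dexamethasone against IgG, the smallest that 4 against 4 arrays allow). Between these groups, the treatment and whatever set the spike-in signal cannot be told apart.

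The clearest differences among the members were a lower *Aqp5* and *Aqp3* and a higher *Aqp9* in sutured corneas, and an *Aqp5* signal under dexamethasone that lay near the naïve level. Relative to naïve corneas a call needed a limma adjusted p below 0.05 together with a change of 1.5-fold or more, the limits in the methods, and between treatments at the adjusted p alone. By this rule 1 of 8 members was called in IgG, where 11.3% of all genes were, 1 in anti-*Vegf* (12.8%) and 1 in dexamethasone (12.6%), each time *Aqp9* and each time higher. Without the fold limit the counts were 3, 4 and 2 of 8, against 29.2%, 30.6% and 28.5% of genes. Between treatments 1 member was called for dexamethasone against IgG (10.6% of genes) and 1 for dexamethasone against anti-*Vegf* (7.13%), which was *Aqp5* in both. For anti-*Vegf* against IgG limma called 0 members and 0.0% of genes. The ordinary t test of this contrast, without limma's sharing of the spread between genes, also called 0. By limma, 1 member and 942 genes (6.63%) had an unadjusted p under 0.05. The median log2 difference of the members relative to naïve corneas was −0.12 (IgG), −0.33 (anti-*Vegf*) and −0.09 (dexamethasone), beside −0.01, −0.01 and 0.00 over all genes. It was 0.05 for dexamethasone against IgG and 0.17 against anti-*Vegf*, beside 0.02 for all genes in both. The arrays of both groups were fully apart for 3, 4 and 2 members in IgG, anti-*Vegf* and dexamethasone against naïve, where 31.3%, 31.3% and 28.3% of genes were. They were apart for 1 member in dexamethasone against IgG (17.2% of genes), 2 against anti-*Vegf* (13.9%) and 0 in anti-*Vegf* against IgG (5.32%). With only 8 members, a count of 1 call lay near the share of all genes in each comparison.

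**Figure D1:**
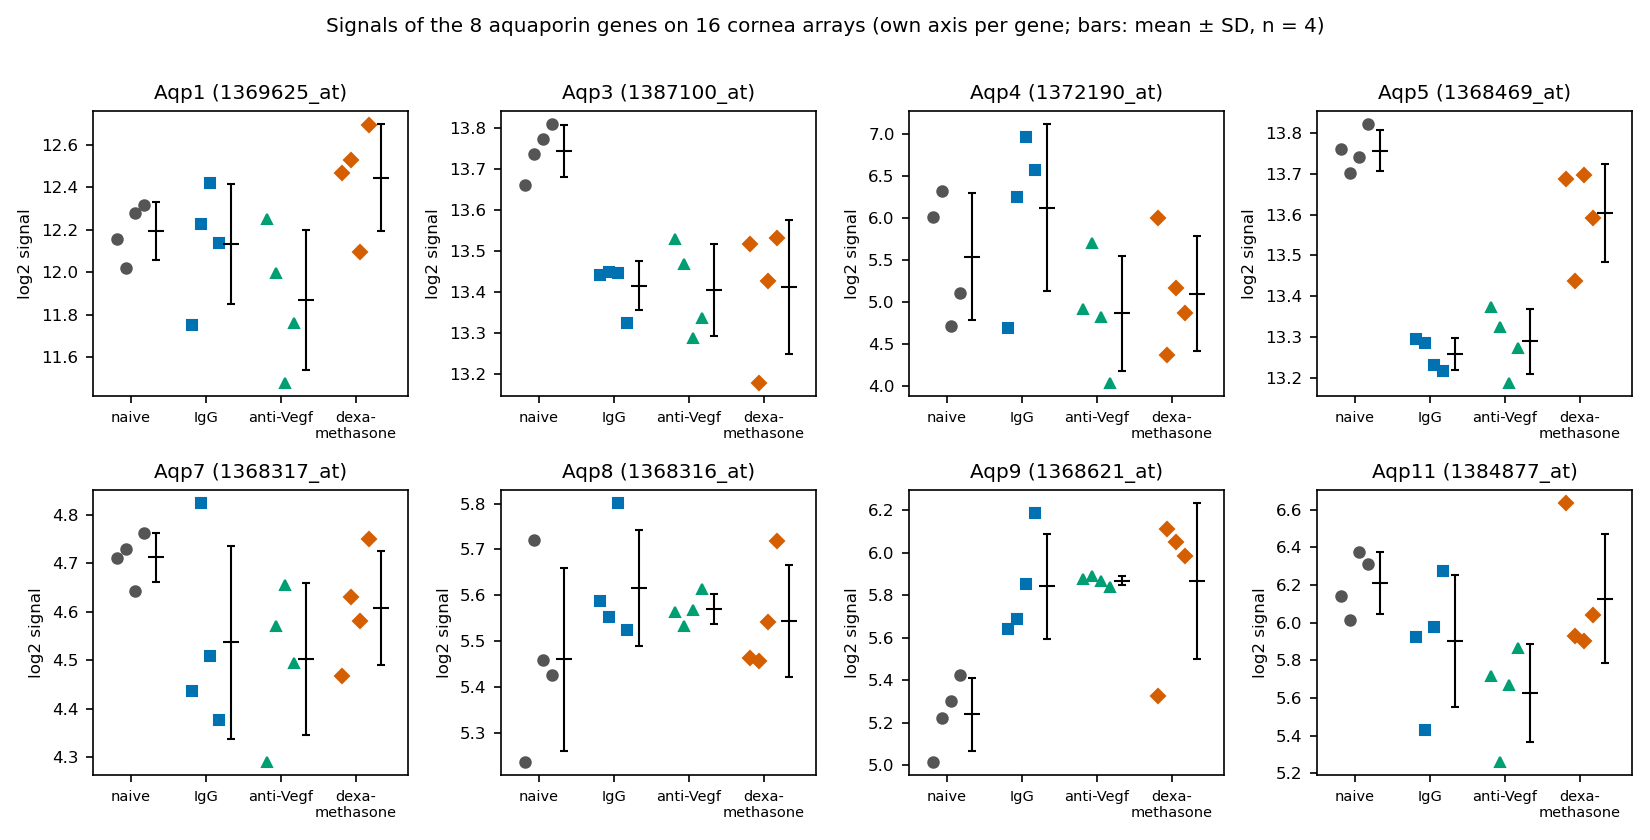
log2 signal of each aquaporin gene on the 16 arrays, by group, with each gene on its own axis and bars for the mean and SD of 4 arrays. *Aqp5* reads 13.70 to 13.82 in naïve, 13.44 to 13.70 in dexamethasone and at most 13.37 in the other groups, *Aqp9* is lowest in naïve corneas, and *Aqp4* spreads over 2.94 units.

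*Aqp5*, the water channel at the surface of the corneal epithelium, was lower in IgG and anti-*Vegf* treated corneas and less so under dexamethasone. Naïve arrays 1 to 4 read 13.76, 13.70, 13.74 and 13.82. IgG arrays F17, F19, F22 and F23 read 13.30, 13.29, 13.23 and 13.22, and anti-*Vegf* arrays F1x, F2, F6 and F7 read 13.37, 13.32, 13.19 and 13.27. Dexamethasone arrays F25, F26, F27 and F30 read 13.69, 13.44, 13.70 and 13.59. All 8 naïve and dexamethasone arrays thus lay above all 8 IgG and anti-*Vegf* arrays, an order seen in 1.43% of genes and in no other member.

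Relative to naïve corneas *Aqp5* was lower by 0.50 log2 units in IgG (SE 0.07, 1.41-fold, limma adjusted p = 0.000111) and by 0.47 in anti-*Vegf* (1.38-fold, adjusted p = 0.000175), both short of the fold limit. Centred on reference genes, a scaling that moved the median of all genes to −0.27 and −0.34, both were called (−0.76 and −0.80). Whether fewer epithelial cells or less RNA per cell lay behind a lower signal cannot be told apart in such tissue samples, here and for every member. The dexamethasone group was 0.15 below the naïve group, with arrays that met at 13.70 without crossing, and did not pass (adjusted p = 0.148, although the 95% interval of −0.30 to −0.0018, which is not adjusted, left out 0). *Aqp5* was higher with dexamethasone than with IgG by 0.35 (SE 0.07, 1.27-fold, adjusted p = 0.00663) and than with anti-*Vegf* by 0.31 (SE 0.07, 1.24-fold, adjusted p = 0.0158). Anti-*Vegf* and IgG differed by 0.03 (95% interval −0.12 to 0.18). The difference from anti-*Vegf* missed the threshold without anti-*Vegf* array F6 (0.28, adjusted p = 0.0527) and in a fit of these 2 groups alone (adjusted p = 0.0812). No array left out ended the call against IgG, where the adjusted p stayed at or under 0.0249.

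The spike-in controls given above split the arrays into the same 2 pairs of groups as *Aqp5*, and were low where *Aqp5* was high. Whether what set the spike-in signal had a part in the *Aqp5* order was not tested. A second control, which sets a 5′ against a 3′ control probe set of *Gapdh* and drops where the 5′ end is poorly copied, read −0.48 to −0.32 on dexamethasone arrays and −0.16 to −0.04 on IgG and anti-*Vegf* arrays. It split the naïve group, with −0.43 on arrays 1 and 2 but −0.19 and −0.16 on arrays 3 and 4. Its part in the *Aqp5* order was not tested either.

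*Aqp3*, the aquaglyceroporin of the deeper epithelial layers, was lower in all sutured corneas by nearly the same amount. Naïve arrays read 13.66, 13.74, 13.77 and 13.81. IgG arrays read 13.44, 13.45, 13.45 and 13.32, anti-*Vegf* arrays 13.53, 13.47, 13.29 and 13.34, and dexamethasone arrays 13.52, 13.18, 13.43 and 13.53, in the order of arrays used above. Every naïve array lay above every sutured one, for *Aqp3* as for *Aqp5*, which held for 7.77% of genes. The difference from naïve corneas was −0.33 in IgG (SE 0.08, limma adjusted p = 0.00873), −0.34 in anti-*Vegf* (adjusted p = 0.00715) and −0.33 in dexamethasone (adjusted p = 0.00941), a fold change of at most 1.27 that was not called. With reference-gene centring *Aqp3* was called in IgG (−0.59) and anti-*Vegf* (−0.68) but not in dexamethasone. Between treatments the differences were 0.00 for dexamethasone against IgG (95% interval −0.18 to 0.18) and 0.01 against anti-*Vegf* (−0.17 to 0.19).

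The difference *Aqp5* minus *Aqp3* on the same array was −0.03 to 0.10 on naïve, −0.21 to −0.11 on IgG, −0.15 to −0.06 on anti-*Vegf* and 0.06 to 0.27 on dexamethasone arrays. It was chosen after the values were seen and sets different probe sets against each other, so it is given as a description that restates the *Aqp5* differences, with no test. Both signals were above 99.7% of probe sets, at the upper end of the array's range.

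**Figure D2:**
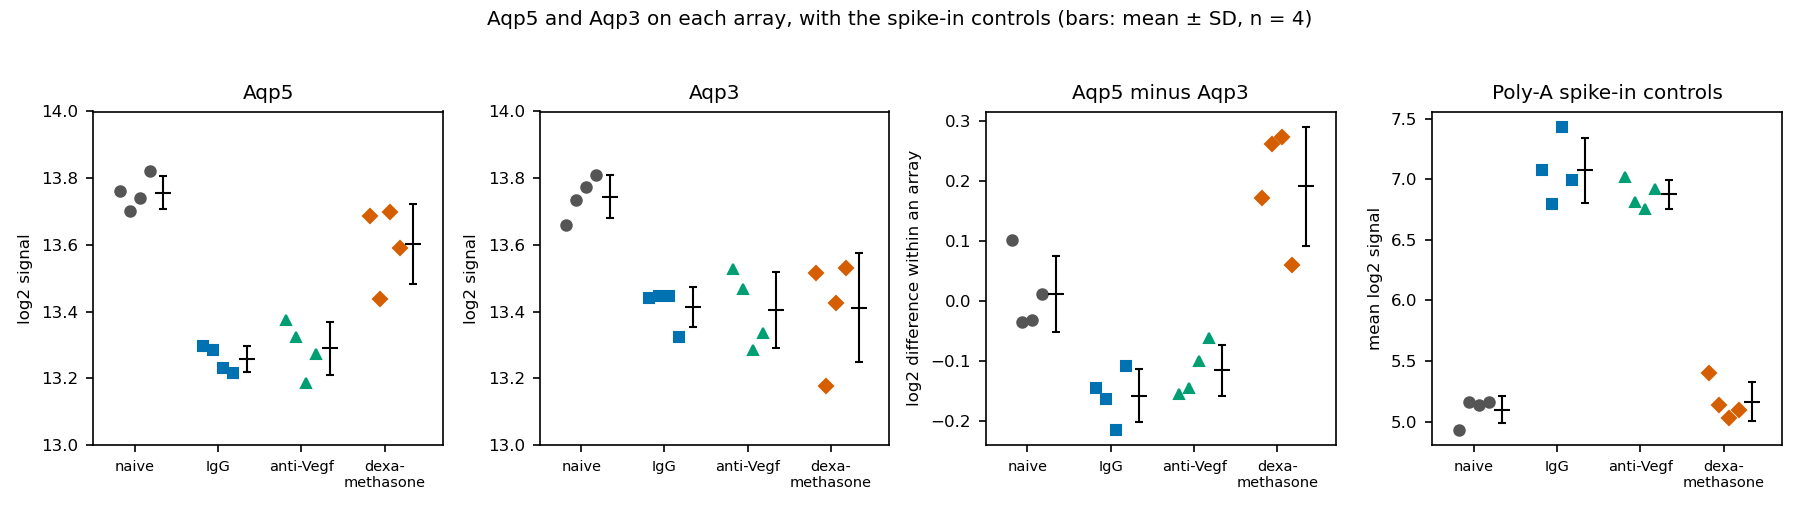
log2 signal of *Aqp5* and *Aqp3* on a shared scale, their difference within each array, and the mean log2 signal of the poly-A controls, with 1 point per array and bars for the mean and SD of 4. *Aqp5* is high in naïve and dexamethasone treated corneas, *Aqp3* in naïve corneas only, and the spike-in controls are low on the arrays where *Aqp5* is high.

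Of the 6 measured markers of the corneal epithelium, 0 were called lower in any sutured group. *Pax6*, the eye's master transcription factor, was lower by a similar amount as *Aqp5* and *Aqp3* and likewise short of the fold limit (−0.44, −0.45 and −0.54 in IgG, anti-*Vegf* and dexamethasone, limma adjusted p = 0.0238, 0.0208 and 0.00805). *Krt12* differed from naïve corneas by −0.06, −0.07 and −0.06 in IgG, anti-*Vegf* and dexamethasone (adjusted p = 0.428, 0.414 and 0.513). Its naïve arrays (14.74 to 14.79) still all lay above its sutured ones (14.67 to 14.73, 14.65 to 14.72 and 14.68 to 14.73), as for *Aqp3* and *Aqp5*. *Krt14*, a keratin of basal cells, rose by 1.62, 1.69 and 1.55. The summed linear signal of the 6 markers, in units of 1000, was 70.45 to 72.31 in naïve corneas and 80.68 to 88.24 in sutured ones. This sum gives most weight to genes with a strong signal, *Krt14* among them, and does not stand for each marker. *Clu* rose by 3.86, 3.29 and 3.50, and *Krt15* was called higher in IgG alone (0.86). *Krt5*, like *Krt12* and *Pax6*, was not higher in any sutured group (−0.10, −0.11 and −0.08). *Krt12* and *Krt5* averaged 14.72 and 14.54, at the upper end of the array's range. Whether their differences were compressed there was not tested. Over the 16 arrays *Aqp3* and *Aqp5* correlated with r = 0.75, and with r = 0.80 once each array was taken as its deviation from its group mean. The genes closest to *Aqp5* over the 16 arrays were *Vamp2* (r = 0.953), *Trim37* (0.943) and *Mbtps1* (0.941), and over the deviations *Csrp2* (0.908), *Fam169a* (0.890) and *Itm2b* (0.877). *Vamp2*, a protein of vesicle fusion, read 8.45 to 8.57 in naïve and 8.13 to 8.24 in dexamethasone treated corneas but 7.46 to 7.76 in the others. Closest to *Aqp3*, for which no such search had been planned, were *Tacr2* (0.974), a tachykinin receptor that read up to 10.71 in naïve and up to 9.18 in sutured corneas without overlap, *Phyhip* (0.968) and *Sdc1* (0.958), a surface proteoglycan of epithelium. These correlations are descriptions over arrays that share their groups and labelling.

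*Aqp9*, the aquaglyceroporin of liver and white blood cells, was the member that rose in all sutured groups. Naïve arrays read 5.01, 5.22, 5.30 and 5.42. IgG arrays read 5.64, 5.69, 5.85 and 6.19, anti-*Vegf* arrays 5.88, 5.89, 5.87 and 5.84, and dexamethasone arrays 5.32, 6.11, 6.05 and 5.98. All IgG and anti-*Vegf* arrays lay above the naïve ones, whereas dexamethasone array F25 fell within the naïve range. The rise was 0.60 in IgG (SE 0.16, 1.52-fold, limma adjusted p = 0.00881), 0.63 in anti-*Vegf* (1.55-fold, adjusted p = 0.00657) and 0.63 in dexamethasone (1.55-fold, adjusted p = 0.00764). Treatments did not differ detectably from each other, with 95% intervals of −0.30 to 0.35 for dexamethasone against IgG and −0.33 to 0.33 against anti-*Vegf*.

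The signal of *Aqp9* was low, above 35.7% of probe sets, where that of *Aqp8* was above 33.0%. In naïve corneas *Aqp9* averaged 5.24 and *Aqp8* 5.46, so it is not known whether *Aqp9* was expressed there. The changes of *Aqp9* sat just past the fold limit. Centring each array on 6 reference genes ended the call in all 3 sutured groups (0.34, 0.29 and 0.39, adjusted p = 0.0517, 0.077 and 0.0317). The call was lost at a fold under 1.5 in IgG without IgG array F23 (0.49, adjusted p = 0.0342), in dexamethasone without array F26 or F27 (0.55 and 0.57), and in all groups without naïve array 1 (0.53, 0.55 and 0.55). Without naïve arrays 1 and 2 together, a setting added after seeing the data, the differences were 0.48, 0.51 and 0.50 with adjusted p of 0.0998, 0.0766 and 0.0817.

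White blood cell genes rose in the same groups as *Aqp9*. The summed linear signal of the 10 neutrophil and monocyte markers, in units of 1000, was 2.21 to 3.20 in naïve corneas, 18.65 to 26.81 in IgG, 17.74 to 22.48 in anti-*Vegf* and 9.10 to 37.09 in dexamethasone. *S100a9*, an abundant neutrophil protein, read 7.04 to 7.32 in naïve corneas and 13.19 to 14.05 in IgG, and the dexamethasone array with the lowest *Aqp9* (F25) also had the lowest *S100a9* of the sutured arrays (11.55). Within the IgG group both did not run in parallel, as array F17 had the highest *S100a9* (14.05) and the lowest *Aqp9* (5.64). Of the 10 markers, *Itgam*, *Cd68*, *Cd14* and *Fcgr3a* were not called in any sutured group, and *Cd68* differed by −0.31 in dexamethasone. Closest to *Aqp9* over the 16 arrays were *Ncf4* (r = 0.923), a subunit of the phagocyte oxidase, *Atp8b4* (0.919) and *Cd300c2* (0.918). Over deviations from the group means they were *Alox5ap* (0.906), which serves leukotriene synthesis, the chemokine *Ccl3* (0.895) and *Napsa* (0.872). How much of the rise in *Aqp9* came with infiltrating cells was not tested.

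**Figure D3:**
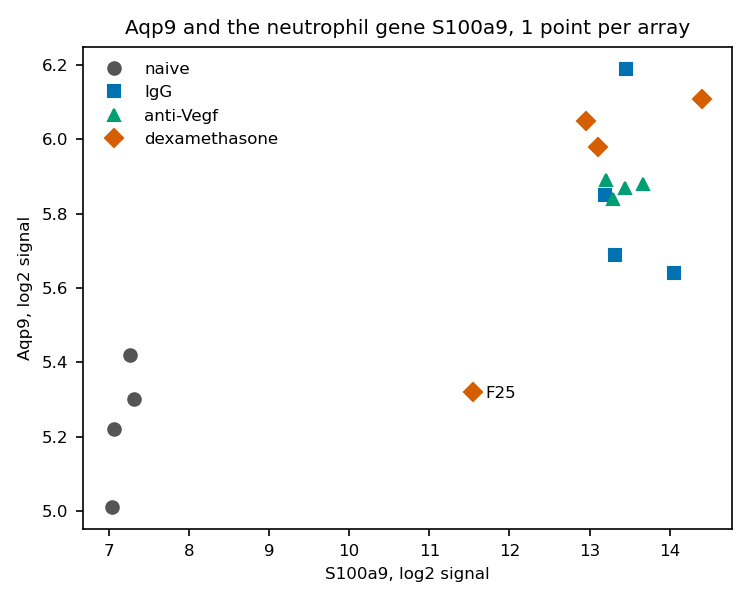
log2 signal of *Aqp9* against that of *S100a9*, 1 point per array and a symbol per group. The 4 naïve arrays lie at 5.01 to 5.42 for *Aqp9* and near 7 for *S100a9*, all sutured arrays lie to the right, and array F25 is the lowest sutured point on both axes.

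*Aqp1*, the water channel of corneal endothelium and keratocytes, was strongly expressed and was called in no comparison. On the probe set that stood for the gene, naïve arrays read 12.16, 12.02, 12.28 and 12.32, IgG arrays 11.75, 12.23, 12.42 and 12.14, anti-*Vegf* arrays 12.25, 12.00, 11.48 and 11.76, and dexamethasone arrays 12.47, 12.53, 12.09 and 12.69. The groups overlapped throughout. Dexamethasone was above anti-*Vegf* by 0.58 (SE 0.17, 1.49-fold), just short of the threshold (adjusted p = 0.0512). This difference passed without anti-*Vegf* array F1x (0.70, adjusted p = 0.0265) and without dexamethasone array F27 (0.69, adjusted p = 0.0325).

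The other *Aqp1* probe set read 10.19 to 11.14 in naïve, 10.63 to 11.51 in IgG, 10.38 to 11.25 in anti-*Vegf* and 10.24 to 11.16 in dexamethasone treated corneas and did not show this difference. There dexamethasone and anti-*Vegf* differed by −0.02 (SE 0.26, adjusted p = 0.974), and dexamethasone was 0.45 below IgG (adjusted p = 0.298) where the first probe set had it 0.31 above (adjusted p = 0.270). Within groups both probe sets varied together, with r = 0.88 over deviations from the group means of the 16 arrays. The gap between them, examined after the values were seen, was 1.80, 1.83, 1.16 and 1.18 on naïve arrays 1 to 4, 0.91 to 1.12 on IgG, 1.00 to 1.30 on anti-*Vegf* and 1.53 to 1.95 on dexamethasone arrays. It was wider with dexamethasone than with IgG by 0.77 and than with anti-*Vegf* by 0.60 (exact two-sided permutation p = 0.0286 for each, n = 4 per group). Because the gap was picked with its values known and restates the differences above, these p-values are a description only.

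The gap was widest where the *Gapdh* control had the weakest 5′ signal. By that control the arrays formed 2 clusters, 1 of the dexamethasone arrays with naïve arrays 1 and 2 and 1 of the other 10. This split was set after the values were seen, and the permutations ignored the groups within a cluster. Differences between groups can therefore enter r, so the p-values below cannot tie the gap to the 5′ signal. Among the 10 the gap and the *Gapdh* difference correlated with r = −0.84 and rho = −0.82 (permutation p = 0.0046 and 0.0059, adjusted p of r = 0.0093 over 4 relations computed, r = −0.87 without the 2 arrays farthest from the median). Among the 6 they correlated with r = −0.88 and rho = −0.77 (exact permutation p = 0.022 and 0.10, adjusted p of r = 0.030), but with r = −0.49 over 4 arrays without the farthest 2. Against the beta-actin difference r was −0.78 with rho = −0.76 among the 10 (permutation p = 0.0036 and 0.015, adjusted p of r = 0.0093, and r = −0.54 without the farthest 2). Among the 6 it was −0.67 with rho = −0.49 (exact permutation p = 0.15 and 0.36, adjusted p of r = 0.15, r = −0.66 without the farthest 2). All dexamethasone arrays lay in the cluster of 6 and all antibody arrays among the 10. Treatment and the *Gapdh* difference cannot be told apart there. As the 2 probe sets disagreed, no direction is given for *Aqp1* between dexamethasone and the antibodies.

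**Figure D4:**
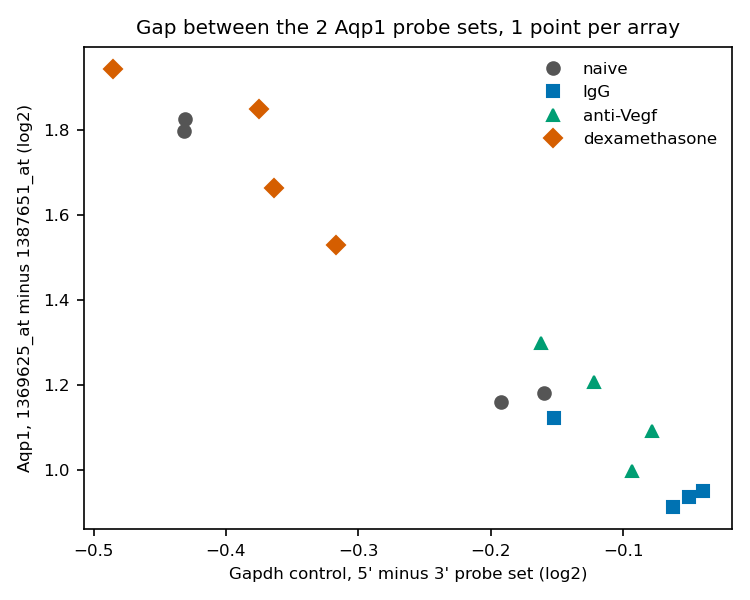
Gap between both *Aqp1* probe sets (log2, vertical) against the 5′ minus 3′ difference of the *Gapdh* control (log2, horizontal), 1 point per array. The dexamethasone arrays and naïve arrays 1 and 2 have gaps of 1.53 to 1.95 at the left, and the other 10 arrays gaps of 0.91 to 1.30 at the right.

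Markers of the cell types known for *Aqp1* were lower in some sutured groups, although *Aqp1* itself was called lower in none. Of 5 measured corneal endothelium markers, 3 were called lower in IgG, 4 in anti-*Vegf* (where *Alcam* was called higher) and 2 in dexamethasone, and their summed linear signal in units of 1000 went from 7.90 to 11.23 in naïve corneas to 3.64 to 6.61, 4.61 to 6.70 and 6.48 to 7.34. Of 7 keratocyte markers, 4 were called lower in anti-*Vegf* and 0 in the other groups. Vessel markers were not called higher in any group, with 1 and 2 of 7 called lower in IgG and anti-*Vegf*. The part of these shifts in the *Aqp1* signal was not tested.

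*Aqp11*, an aquaporin of internal membranes, was lowest in anti-*Vegf* treated corneas. Naïve arrays read 6.14, 6.01, 6.38 and 6.31 and anti-*Vegf* arrays 5.71, 5.26, 5.67 and 5.87, with no overlap. IgG arrays read 5.92, 5.43, 5.98 and 6.27 and dexamethasone arrays 6.63, 5.93, 5.90 and 6.04. Anti-*Vegf* was 0.58 below naïve (SE 0.19, 1.497-fold, limma adjusted p = 0.0285), which is just short of the fold limit. It was called without anti-*Vegf* array F1x (−0.61) or F7 (−0.66) or naïve array 1 (−0.61) or 2 (−0.65), and missed an adjusted p of 0.05 without anti-*Vegf* array F2 (−0.46, adjusted p = 0.0909) or F6 (−0.60) or naïve array 3 (−0.53) or 4 (−0.55). Dexamethasone was above anti-*Vegf* by 0.50 with no overlap but did not pass (adjusted p = 0.122), and anti-*Vegf* against IgG, at −0.27, was not called.

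*Aqp4*, the glial water channel, varied more between corneas of a group than between groups. On the probe set that stood for the gene, naïve arrays read 6.01, 6.33, 4.71 and 5.10, IgG arrays 4.69, 6.26, 6.97 and 6.58, anti-*Vegf* arrays 4.91, 5.70, 4.81 and 4.03, and dexamethasone arrays 6.0, 4.36, 5.16 and 4.86. The SD within a group was 0.68 to 1.00, against at most 0.37 for any other member on the probe set that stood for it. Anti-*Vegf* was 1.26 below IgG (95% interval −2.30 to −0.22), the largest difference of any member in any comparison, yet with a limma adjusted p of 0.735. The second probe set followed the first with r = 0.94 over the 16 arrays, and the third, which read 3.59 to 4.09, did not (r = 0.05). The spread was thus seen by 2 of 3 probe sets. All 3 signals were low, above 30.6%, 14.3% and 7.5% of the probe sets on the array.

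*Aqp7*, the glycerol channel of fat cells, and *Aqp8*, a channel of gut and liver epithelium that also passes hydrogen peroxide, were low and flat. *Aqp7* read 4.29 to 4.82 and *Aqp8* 5.24 to 5.80 over all arrays, above 17.6% and 33.0% of probe sets. The largest difference from naïve corneas was −0.21 for *Aqp7* in anti-*Vegf* (adjusted p = 0.148) and 0.16 for *Aqp8* in IgG (adjusted p = 0.264). An array gives no zero, so it is not known whether these genes were expressed at all.

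**Figure D5:**
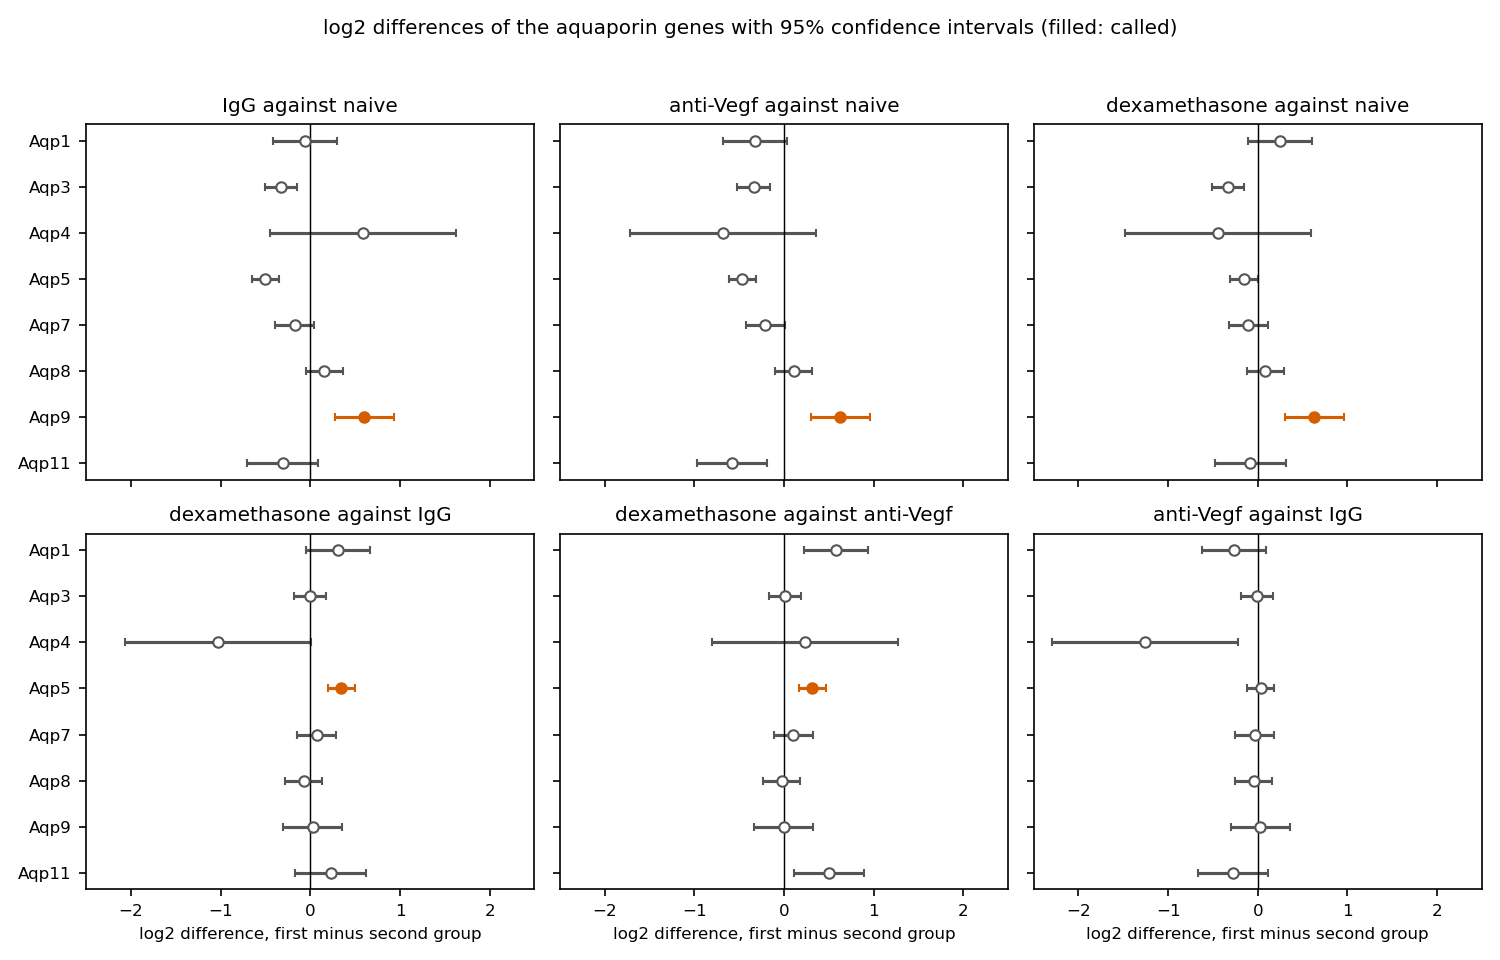
log2 difference of each aquaporin gene in the 6 comparisons (first group minus second) with 95% confidence intervals, filled and orange where called. *Aqp9* is called at 0.60 to 0.63 in every sutured group relative to naïve corneas and *Aqp5* at 0.35 and 0.31 for dexamethasone against IgG and anti-*Vegf*, and *Aqp4* has the widest intervals.

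Of the other aquaporin genes, 4 of 5 were measured and *Aqp2* moved most. *Aqp2*, the vasopressin-regulated channel of the kidney that neighbours *Aqp5*, read 6.61 to 6.89 in naïve, 6.62 to 7.74 in IgG, 7.10 to 7.89 in anti-*Vegf* and 7.48 to 8.26 in dexamethasone treated corneas. It rose relative to naïve corneas by 1.04 in dexamethasone (SE 0.23, limma adjusted p = 0.00329) and 0.65 in anti-*Vegf* (adjusted p = 0.0432), and was higher with dexamethasone than with IgG by 0.86 (adjusted p = 0.0252). *Mip*, the aquaporin of the lens, rose by 0.77 in dexamethasone (adjusted p = 0.0382), with its highest reading (6.08) on array F26, which was also the highest for *Cryaa* (11.31). The other dexamethasone arrays read 4.96, 4.39 and 4.52, and the group overlapped with the naïve one (4.02 to 4.40). Its signal was low, above 16.1% of probe sets. *Mip* was not called for dexamethasone against IgG (limma adjusted p = 0.147) or against anti-*Vegf* (0.12). The part of lens RNA in the *Mip* signal was not tested. *Aqp6* and *Aqp12a* were called in no comparison.

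Water follows the ions that other membrane proteins move. Of 21 measured genes of ion, bicarbonate and lactate transport, 4 were called higher and 3 lower in IgG, 5 and 4 in anti-*Vegf*, and 6 and 2 in dexamethasone relative to naïve corneas. The bicarbonate cotransporter *Slc4a7* rose by 1.90, 2.15 and 1.90 (limma adjusted p = 2.61e-05, 7.98e-06 and 2.73e-05) and the lactate transporters *Slc16a1* by 1.45, 1.53 and 1.83 and *Slc16a3* by 1.43, 1.46 and 1.60. *Slc12a2*, the chloride cotransporter with the highest signal of the list, differed by 0.10, 0.14 and −0.22 and was not called. *Atp1b1*, a subunit of the sodium pump named here after its values were seen, had a course like that of *Aqp5*. It fell by 0.94 in IgG and 0.96 in anti-*Vegf* (adjusted p = 0.00205 and 0.00174), differed by −0.06 in dexamethasone, and was higher with dexamethasone than with either antibody by 0.88 and 0.90 (adjusted p = 0.0101 and 0.0129). It read 9.73 to 10.01 in dexamethasone and 9.58 to 10.24 in naïve corneas, 8.67 to 9.25 in IgG and 8.56 to 9.63 in anti-*Vegf*, where array F2 reached into the naïve range. The sodium channel subunit *Scnn1b* was the other gene called higher with dexamethasone than with both antibodies (0.54 and 0.53), and the carbonic anhydrase *Car12* was called lower (−0.35 and −0.34).

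Of 11 measured binding partners and regulators of aquaporins, 0 were called relative to naïve corneas in any group, and *Dag1*, which anchors *Aqp4* at glial endfeet, was higher with dexamethasone than with anti-*Vegf* by 0.26 (adjusted p = 0.0200). *Ezr*, the list's gene with the highest signal, differed by −0.22, −0.27 and −0.40 from naïve corneas (adjusted p = 0.0958, 0.0492 and 0.00623), short of the fold limit. Of 11 osmotic response genes, 1 was called higher in each sutured group and 1 lower in IgG and in anti-*Vegf*. The inositol transporter *Slc5a3* rose by 1.20 and 0.95 in IgG and anti-*Vegf*, the aldose reductase gene *Akr1b1* fell by 0.69 and 0.87 there, and *Sgk1*, a kinase induced by glucocorticoids, rose by 0.63 in dexamethasone. *Slc38a2*, with the highest signal of that list, was not called (0.07, −0.12 and 0.28).

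Glycerol and hydrogen peroxide are solutes that some aquaporins pass. Of 11 glycerol and lipid genes, 2 were called higher in each sutured group, *Agpat2* (1.21, 1.41 and 1.50) and *Dgat1* (1.02, 0.99 and 1.08), both of triglyceride synthesis, and 0 were called between treatments. *Lpl*, the lipase that frees fatty acids and glycerol outside cells, fell in IgG and anti-*Vegf* (−1.28 and −1.19), with −0.65 in dexamethasone (adjusted p = 0.0631). The glycerol kinase gene *Gk* was not called (−0.20, −0.16 and −0.10). Of 11 genes of hydrogen peroxide handling, 2 were called higher in IgG and anti-*Vegf* and 3 in dexamethasone, with 1 lower in each. *Sod2* rose by 2.01, 1.88 and 2.31 and the phagocyte oxidase gene *Cybb* by 1.93, 2.15 and 2.33, whereas *Nox1*, another oxidase gene, fell (−1.42, −1.47 and −1.93). *Gpx3* was called higher in dexamethasone alone (1.35, beside 0.40 and −0.14). *Prdx2*, with the highest signal of the list, differed by −0.19, −0.30 and −0.32 and was not called.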

How the data were processed

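The values deposited by the authors are log2 signals per probe set after RMA (background correction, quantile normalization and summary of probes) in Affymetrix Expression Console, which were used here without further scaling, filter or pseudocount. Array medians lay between 6.551 and 6.618. All 16 sample columns were used (0 left out), and 57 control probe sets served as checks only.

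Of 31042 tested probe sets, 20826 have 1 gene symbol, 436 several (assigned to no gene) and 9780 none. Symbols come from the platform annotation, with 20758 Entrez IDs found in RefSeq. limma 3.58.1 (R 4.3.3) was fitted with 1 mean per group and 12 residual degrees of freedom, with Benjamini-Hochberg adjustment over all tested probe sets, after a check on simulated data. Single values were compared by exact permutation tests with Python 3.11.15. The number of arrays limits the precision. Each array is a separate cornea.

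Alternatives were a mean-variance trend, array weights, only the compared groups, the ordinary t test of each contrast, cyclic loess, reference genes, a filter at the 40th percentile, mean probe sets, no fold limit, unadjusted p and leaving out arrays. Named genes are all members and, per list, the gene with the highest signal and up to 3 called genes with the largest change, and for each called member the 3 genes with the highest Pearson r. *Atp1b1*, *Scnn1b*, *Car12*, *Gpx3* and the genes nearest to *Aqp3* were named after their values were seen. Members and lists were chosen with earlier results of these data known.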

Additional observations from a re-analysis of the deposited data

Results flagged for a closer look

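*Aqp5* differed between dexamethasone and the antibodies while all these corneas carried sutures: its log2 signal was higher by 0.35 than with IgG and by 0.31 than with anti-*Vegf* (limma adjusted p = 0.00663 and 0.0158), on 4 of 4 dexamethasone arrays in both cases. The poly-A controls split the same arrays, so treatment and whatever set the spike-in signal cannot be told apart. The call against anti-*Vegf* was lost without anti-*Vegf* array F6 and in a fit of these groups alone.

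Single arrays stood apart from the others of their group by Dixon's criterion, which chance meets in about 1 in 20 groups. The criterion was applied to all 8 members in every group, so a few such arrays can arise by chance alone. The arrays below are therefore given as a description only. For *Aqp3*, IgG array F23 read 13.32 where the others read 13.44 to 13.45. For *Aqp9*, dexamethasone array F25 read 5.32 where the others read 5.98 to 6.11.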

How the results depend on the processing

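For dexamethasone against IgG, *Aqp5* stayed the called member under every alternative run. The number of members called for dexamethasone against anti-*Vegf* (1) became 0 in a fit of these groups alone, 2 with cyclic loess, with reference genes or with the filter at the 40th percentile (which left 6 members), and 3 at an unadjusted p, where anti-*Vegf* against IgG gave 1 instead of 0. Without the fold limit the counts relative to naïve corneas were 3, 4 and 2 in IgG, anti-*Vegf* and dexamethasone. Without naïve arrays 1 and 2 they were 0, 1 and 0. With 1 array left out they ranged from 0 to 1 (IgG), 1 to 2 (anti-*Vegf*) and 0 to 1 (dexamethasone), and from 0 to 2 for dexamethasone against anti-*Vegf*, and stayed at 1 for dexamethasone against IgG and at 0 for anti-*Vegf* against IgG.

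Centring each array on 6 measured reference genes moved the median of all genes relative to naïve corneas to −0.27 (IgG), −0.34 (anti-*Vegf*) and −0.24 (dexamethasone), and to 0.12 between dexamethasone and anti-*Vegf*. The member counts became 2, 4, 0 and 2 in these comparisons, with all genes called going from 1612 to 2688, from 1814 to 3429, from 1797 to 2360 and from 1013 to 1791. *Aqp5* (−0.76 and −0.80) and *Aqp3* (−0.59 and −0.68) were then called in IgG and anti-*Vegf*, and *Aqp9* was not (0.34, 0.29 and 0.39). *Aqp8* turned to −0.11, −0.23 and −0.16 relative to naïve corneas and 0.0707 for dexamethasone against anti-*Vegf*, *Aqp5* and *Aqp9* to −0.0421 and −0.0472 for anti-*Vegf* against IgG, *Aqp9* to 0.0948 for dexamethasone against anti-*Vegf* and *Aqp3* to 0.0192 for dexamethasone against IgG.

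Other turns of sign concerned differences that were not called. *Aqp1* turned to 0.20 in IgG relative to naïve and −0.0715 for dexamethasone against IgG with the mean of its probe sets. With cyclic loess *Aqp3* turned to 0.0213 for dexamethasone against IgG and *Aqp9* to 0.0112 against anti-*Vegf*, and with array weights they turned to −0.0081 and 0.0335 against anti-*Vegf*. With 1 array left out, *Aqp1* ranged from −0.16 to 0.0685 in IgG relative to naïve, *Aqp3* from −0.0511 to 0.0296 for anti-*Vegf* against IgG, from −0.0419 to 0.076 for dexamethasone against IgG and from −0.0321 to 0.0859 against anti-*Vegf*. *Aqp4* ranged from −0.0674 to 0.51 for dexamethasone against anti-*Vegf*, *Aqp7* from −0.0872 to 0.0615 for anti-*Vegf* against IgG, and *Aqp8* from −0.0766 to 0.0159 there and from −0.0834 to 0.0043 for dexamethasone against anti-*Vegf*. *Aqp9* ranged from −0.0401 to 0.14 for anti-*Vegf* against IgG, from −0.0553 to 0.21 for dexamethasone against IgG and from −0.0824 to 0.18 against anti-*Vegf*. The cause was not tested. Over all genes, a fit of dexamethasone and anti-*Vegf* alone called 544 instead of 1013. Without the fold limit 4145, 4351 and 4049 genes passed relative to naïve corneas, and at an unadjusted p 3606 instead of 1503 for dexamethasone against IgG, 3234 against anti-*Vegf* and 942 instead of 0 for anti-*Vegf* against IgG. With 1 array left out, dexamethasone against IgG gave 890 without IgG array F19, 963 without dexamethasone array F26 and 941 without F27, dexamethasone against anti-*Vegf* gave 572 without anti-*Vegf* array F6, 646 without F7 and 660 without dexamethasone array F27, and anti-*Vegf* against IgG gave 2 without anti-*Vegf* array F2 and 1 without IgG array F23. No paired analysis was made, because each array is a separate cornea and no pairing between groups is described.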
